A study of Homo sapiens with 10 samples.

Results

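Described here are 10 genes that read out signalling from receptor tyrosine kinases through RAS and ERK: the transcription factors ETV1, ETV4 and ETV5, the feedback inhibitors SPRY1, SPRY2, SPRY4, SPRED1, DUSP4 and DUSP6, and the immediate early gene EGR1. They were chosen by name, and all 10 were present among the 30357 named genes of the deposited gene tables and passed the filter on low counts. The cultures were grown from RUES2, a human embryonic stem cell line in long use, edited so that tdTomato reports AVIL, a gene of sensory neurons. Every culture carried this reporter and was taken at 60 days in vitro. They differed in the differentiation protocol, which was meant to bias the neurons to nociceptors (4 libraries), to low-threshold mechanoreceptors (3 libraries) or to proprioceptors (3 libraries). All came from 1 edited line, the group names are those of the protocols rather than of sorted cells, and sorting on the reporter is neither stated nor denied in the labels. The titles speak of biological replicates without naming separate differentiations. The p-values below therefore reflect only how far these libraries differ from one another, which may be technical.

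Growth factors and neurotrophins bind receptor tyrosine kinases, which activate RAS and then the kinases RAF, MEK and ERK. ERK signalling raises transcription of EGR1 within minutes and supports expression of the PEA3 family of ETS factors, ETV1, ETV4 and ETV5. It also induces its own inhibitors: sprouty and SPRED proteins act upstream, at the level of receptors and RAS, and dual-specificity phosphatases remove phosphate from the MAP kinases themselves. In dorsal root ganglia, Etv1 (Er81) is required for proprioceptors to connect with motor neurons, and neurotrophin-3 induces it.

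The named genes held between 27891186 and 44541262 estimated counts per library, and 12066 to 14160 genes reached a TPM (a level corrected for transcript length and scaled to the same total in every library) of at least 1. Pan-neuronal genes were abundant in all 10 libraries, with a summed TPM of 8109 to 25310, and the sensory neuron list summed to 676 to 2393. Other cells were present to very different degrees. Endothelial genes summed to 0.172 to 1.55 TPM. The mean log2 CPM of 11 fibroblast and mesenchyme genes was 6.06, 5.88, 5.86 and 2.88 under the nociceptor protocol, 1.14, 1.39 and 5.03 under the mechanoreceptor protocol, and 1.69, 5.05 and 1.61 under the proprioceptor protocol. The Schwann and satellite glia list followed the same division, at 6.21 to 7.59 in the 5 libraries high in mesenchyme genes and -0.19 to 4.67 in the other 5. In bulk RNA, fewer cells of a type and less RNA per cell cannot be told apart.

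Levels of 1 gene are given below as CPM, counts relative to a library size scaled by TMM, which is the scale of the test. They are listed in replicate order within each protocol. Proprioceptor library 1 needs this scaling: its TMM factor was 0.778 against 0.943 to 1.10 elsewhere, and its median log2(TPM + 1) over tested genes was 2.56 against 3.41 to 3.82. After scaling, its median log2 CPM over tested genes was still the lowest, at 3.84 against 4.07 to 4.30 elsewhere. Levels of different genes are compared as TPM. On that scale SPRY2 had the highest mean over the 10 libraries at 96.7 ± 31.7 TPM (SD, n = 10), followed by ETV1 at 94.9 ± 62.6, DUSP6 at 70.5 ± 48.7, ETV4 at 47.2 ± 32.5 and ETV5 at 30.9 ± 12.6 TPM. SPRED1 (17.0 ± 10.6 TPM), SPRY4 (13.0 ± 8.66 TPM), SPRY1 (12.6 ± 8.67 TPM) and DUSP4 (10.2 ± 6.40 TPM) were lower, and EGR1 was lowest at 4.82 ± 4.11 TPM. Neighbours in this order differed by less than the larger of their SDs, except ETV5 and SPRED1.

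**Figure D1:**
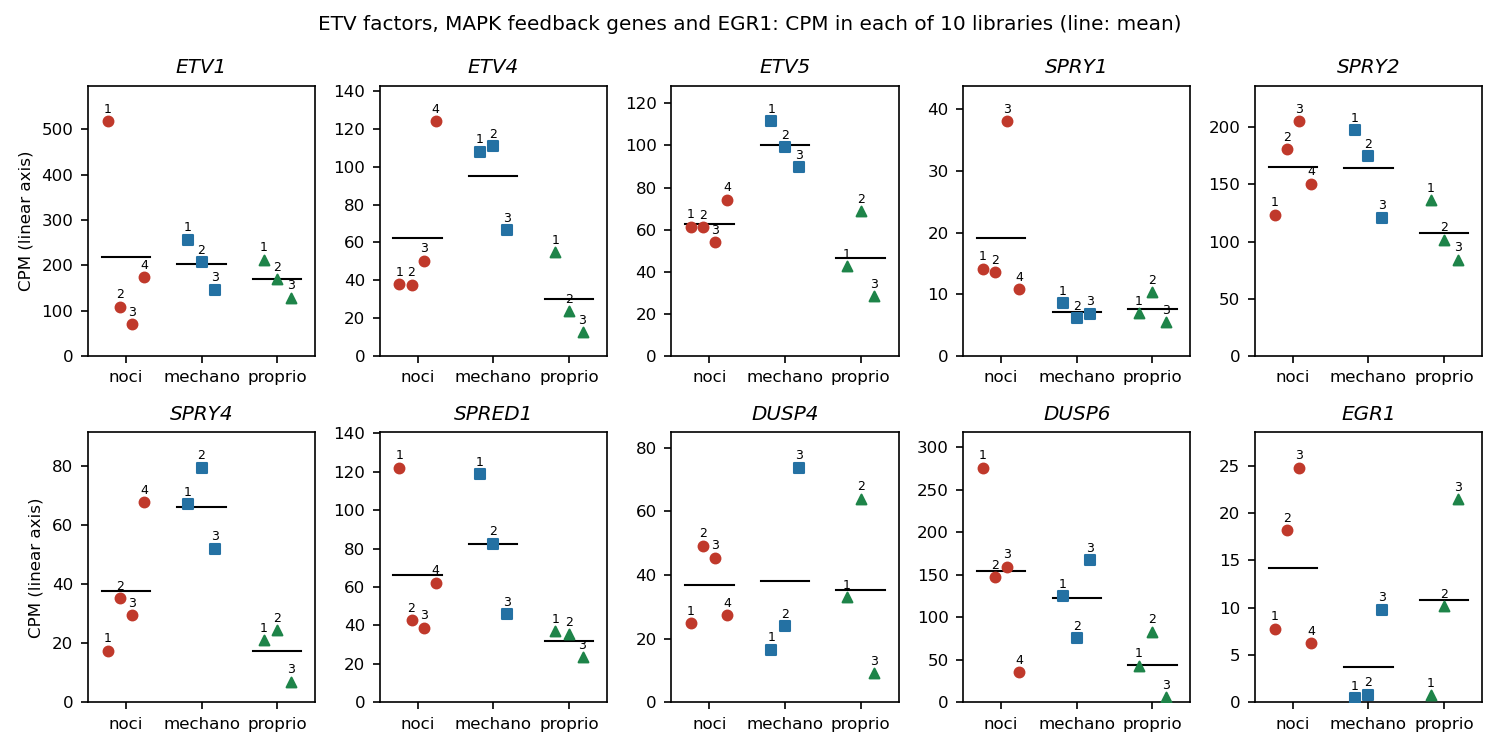
TMM-scaled CPM (linear vertical axes, 1 scale per gene) of each of the 10 genes in the nociceptor (red circles), mechanoreceptor (blue squares) and proprioceptor (green triangles) libraries, numbered by replicate, with a line at each mean. ETV4, ETV5, SPRY4 and SPRED1 show every proprioceptor library below every mechanoreceptor library, and proprioceptor 3 is the lowest library for 8 of the 10 genes.

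ETV1, the factor known from proprioceptors, was not highest under the proprioceptor protocol. It stood at 518, 109, 70.0 and 174 CPM in the nociceptor libraries, at 256, 207 and 147 CPM in the mechanoreceptor libraries, and at 213, 170 and 129 CPM in the proprioceptor libraries. The nociceptor libraries held both the highest and the lowest value, and the 3 protocols overlapped. The log2 difference between the proprioceptor and nociceptor protocols was -0.35 ± 0.59 (SE), and that between the proprioceptor and mechanoreceptor protocols was -0.25 ± 0.63. ETV1 has 6 RefSeq windows around gene starts. A single window held an octamer read by CIC, a repressor that ERK signalling removes from its targets. The upstream part of this window, on the minus strand at chr7:13991426-13991675 of GRCh38.p14, is shown. The octamer is in capitals.
ETV1 upstream: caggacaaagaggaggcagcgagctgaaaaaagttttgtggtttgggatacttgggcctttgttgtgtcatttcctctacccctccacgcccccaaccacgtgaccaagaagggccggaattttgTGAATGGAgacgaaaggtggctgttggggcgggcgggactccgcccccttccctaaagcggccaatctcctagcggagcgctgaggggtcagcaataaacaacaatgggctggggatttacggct

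ETV4 was lower in the proprioceptor libraries than in the mechanoreceptor libraries, with no test passed. It stood at 37.8, 37.6, 50.4 and 124 CPM in the nociceptor libraries, at 108, 111 and 66.4 CPM in the mechanoreceptor libraries, and at 54.8, 23.5 and 12.5 CPM in the proprioceptor libraries. Every mechanoreceptor library was above every proprioceptor library, while nociceptor 4 stood with the mechanoreceptor libraries and away from its own group. Proprioceptor 1 was above the other 3 nociceptor libraries. ETV5, its close relative, stood at 61.4, 61.3, 54.1 and 74.3 CPM in the nociceptor libraries, at 112, 99.3 and 89.6 CPM in the mechanoreceptor libraries, and at 42.5, 68.8 and 28.5 CPM in the proprioceptor libraries. The 3 mechanoreceptor libraries were above all 7 others.

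Among the sprouty genes, whose proteins restrain RAS activation downstream of receptors, SPRY4 followed ETV4 most closely. SPRY4 stood at 17.5, 35.3, 29.6 and 67.7 CPM in the nociceptor libraries, at 67.0, 79.4 and 52.0 CPM in the mechanoreceptor libraries, and at 21.2, 24.4 and 7.01 CPM in the proprioceptor libraries. As with ETV4, the mechanoreceptor and proprioceptor values did not overlap and nociceptor 4 was the highest of its group. SPRY2 varied least, from 84.2 to 205 CPM, with nociceptor and mechanoreceptor means of 165 ± 35.5 and 164 ± 39.3 CPM (SD, n = 4 and 3) and a proprioceptor mean of 107 ± 26.4 CPM (SD, n = 3). SPRY1 had another order: 14.1, 13.5, 38.1 and 10.8 CPM in the nociceptor libraries, 8.58, 6.17 and 6.85 CPM in the mechanoreceptor libraries, and 6.96, 10.3 and 5.52 CPM in the proprioceptor libraries. All 4 nociceptor libraries were above the other 6. SPRED1, a sprouty relative that recruits neurofibromin to RAS, stood at 122, 42.9, 38.8 and 62.2 CPM in the nociceptor libraries, at 119, 82.5 and 45.9 CPM in the mechanoreceptor libraries, and at 37.1, 35.7 and 23.6 CPM in the proprioceptor libraries, which were below all 7 others.

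The phosphatase genes DUSP4, whose protein acts in the nucleus on several MAP kinases, and DUSP6, whose protein acts in the cytoplasm on ERK, spread widely within each protocol. DUSP6 stood at 276, 148, 160 and 35.3 CPM in the nociceptor libraries, at 125, 75.4 and 167 CPM in the mechanoreceptor libraries, and at 43.1, 83.1 and 5.86 CPM in the proprioceptor libraries. The highest value was 47.1 times the lowest, and no pair of protocols was separated. DUSP4 ranged from 24.9 to 49.2 CPM in the nociceptor libraries, from 16.6 to 73.8 in the mechanoreceptor libraries and from 9.23 to 64.0 in the proprioceptor libraries, and the protocols overlapped fully. CIC octamers occurred at 2 places near the RefSeq start of DUSP6, and 30 bases around each are shown, on the minus strand at chr12:89352507-89352536 and chr12:89352482-89352511 of GRCh38.p14, with the octamer, here as its reverse complement, in capitals.
DUSP6 site 1: cggagaatgtaTCCATTGAgacgctcgctg
DUSP6 site 2: cgctgtttgtaTCCATTGAggagctgcctc

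EGR1, a zinc-finger factor and a fast reporter of ERK activity, was low and uneven. It stood at 7.77, 18.2, 24.8 and 6.24 CPM in the nociceptor libraries, at 0.444, 0.823 and 9.81 CPM in the mechanoreceptor libraries, and at 0.737, 10.2 and 21.5 CPM in the proprioceptor libraries. The highest value was 55.9 times the lowest, and the fewest counts of EGR1 in a library were 16, in proprioceptor 1. The upstream RefSeq window of EGR1, on the plus strand at chr5:138465229-138465478 of GRCh38.p14, is shown because it holds the elements through which serum response factor and CREB are known to drive the gene. Capitals mark 2 CArG boxes, bound by serum response factor, and 2 copies of TGACGT, the core of the CREB site, here as its reverse complement.
EGR1 upstream: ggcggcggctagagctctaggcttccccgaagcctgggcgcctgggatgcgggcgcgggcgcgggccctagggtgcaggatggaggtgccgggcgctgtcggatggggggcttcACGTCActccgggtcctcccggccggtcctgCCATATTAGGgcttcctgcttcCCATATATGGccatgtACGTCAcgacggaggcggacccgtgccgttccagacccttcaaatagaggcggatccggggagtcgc

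Motifs were searched on both strands of RefSeq windows of 300 bases around gene starts, which were found for 7 of the 10 genes and not for ETV4, ETV5 or DUSP4. These 7 genes had 15 windows, 6 of them for ETV1. CArG boxes were in 1.29% of all 35116 windows, the CIC octamers TGAATGAA, TGAATGGA, TCAATGAA and TCAATGGA in 3.77%, the ETS motif CCGGAAG in 10.3%, TGACGT in 7.98% and the AP-1 motif TGAGTCA in 4.95%. The windows of the 10 genes held CArG boxes only in EGR1, CIC octamers only in ETV1 and DUSP6, CCGGAAG only in SPRY1, and no TGAGTCA. A match describes these letters and is not evidence of binding.

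Against the mechanoreceptor protocol, the proprioceptor protocol had lower values for most of the 10 genes, but no gene passed the threshold. The edgeR quasi-likelihood test called 0 of 16130 genes (0%) at an adjusted p of 0.05, with 241 genes (1.49%) at an unadjusted p under 0.05, and DESeq2 called 1. Of the 10 genes, 8 had estimates below 0, with a median of -0.86 against 0.04 over all tested genes. DUSP4 and SPRY1, at -0.10 ± 0.69 and 0.08 ± 0.49 (SE), changed sign in some alternatives. The estimates were -1.92 ± 0.55 (SE) for SPRY4, -1.65 ± 0.60 for ETV4, -1.36 ± 0.49 for SPRED1 and -1.10 ± 0.33 for ETV5, the 4 genes with an unadjusted edgeR p under 0.05, where 0.75% of all genes reached that in this direction. Their adjusted p was 1.00 in edgeR. Without proprioceptor 3, which was lowest for 8 of the 10 genes, 2 of the 10 reached an unadjusted p under 0.05, where 0.46% of all genes did so in this direction. The same 4 genes had CPM ranges that did not overlap, as did 3.37% of all genes in this direction. On the TPM scale the count was also 4 (5.02% of all genes), with SPRY2 in place of SPRED1, so 3 genes were separated on both scales. EGR1 went the other way, at 1.55 ± 1.22.

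Against the nociceptor protocol, the proprioceptor protocol had estimates below 0 for all 10 genes, with a median of -0.83 against 0.03 over all tested genes, and none was called. These directions did not all hold: with the mesenchyme level as a covariate EGR1 was at 1.39 and DUSP4 at 0.66, in the libraries low in mesenchyme genes EGR1 was at 0.85 and ETV1 at 0.020, and leaving out 1 library turned ETV1, DUSP4 or EGR1. Mesenchyme and glia genes were high in 3 of the 4 nociceptor libraries and in 1 of the 3 proprioceptor libraries. The low-mesenchyme values above therefore rest on nociceptor 4 alone for the nociceptor protocol. The edgeR test called 0 of 16130 genes (0%), with 998 (6.19%) at an unadjusted p under 0.05, and DESeq2 called 31, none of them among the 10. The estimates were -1.81 ± 0.82 (SE) for DUSP6, -1.33 ± 0.48 for SPRY1 and -1.05 ± 0.46 for SPRED1, the 3 genes with an unadjusted edgeR p under 0.05, where 3.14% of all genes reached that in this direction. DUSP6 stood at 83.1 to 276 CPM in the 5 libraries high in mesenchyme and glia genes and at 5.86 to 125 CPM in the other 5, and the part of those cells in its value was not tested. Without proprioceptor 3 that count was 0. SPRY1 and SPRED1 had CPM ranges that did not overlap (1.46% of all genes in this direction), whereas on the TPM scale these were ETV4 and SPRY2 (1.45%), and no gene was separated on both scales.

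Between the mechanoreceptor and nociceptor protocols the 10 genes divided evenly, 5 with estimates above 0 and 5 below, a tally that moved with the processing. DUSP4, SPRY2, ETV1, ETV4, DUSP6 and SPRED1 each changed sign in at least 1 alternative, with DUSP6 at 1.21 with the mesenchyme covariate and 1.503 in the libraries low in mesenchyme genes, and ETV1 at 0.42 on log2(TPM + 1). Nociceptor 4 was the only nociceptor library among those low in mesenchyme genes. The edgeR test called 0 of 16130 genes (0%), with 1320 (8.18%) at an unadjusted p under 0.05, and DESeq2 called 150, none of them among the 10. ETV5 was at 0.67 ± 0.30 (SE) and SPRY1 at -1.41 ± 0.48, each with an unadjusted edgeR p under 0.05, which 3.59% of all genes reached upward and 4.59% downward. These were also the genes whose ranges did not overlap on either scale (5.28% of genes upward and 2.59% downward as CPM, 8.05% and 1.84% as TPM). ETV4 at 0.60 ± 0.55 and SPRY4 at 0.82 ± 0.50 overlapped with the nociceptor libraries only through nociceptor 4. The 3 comparisons share libraries and are not independent of each other.

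**Figure D2:**
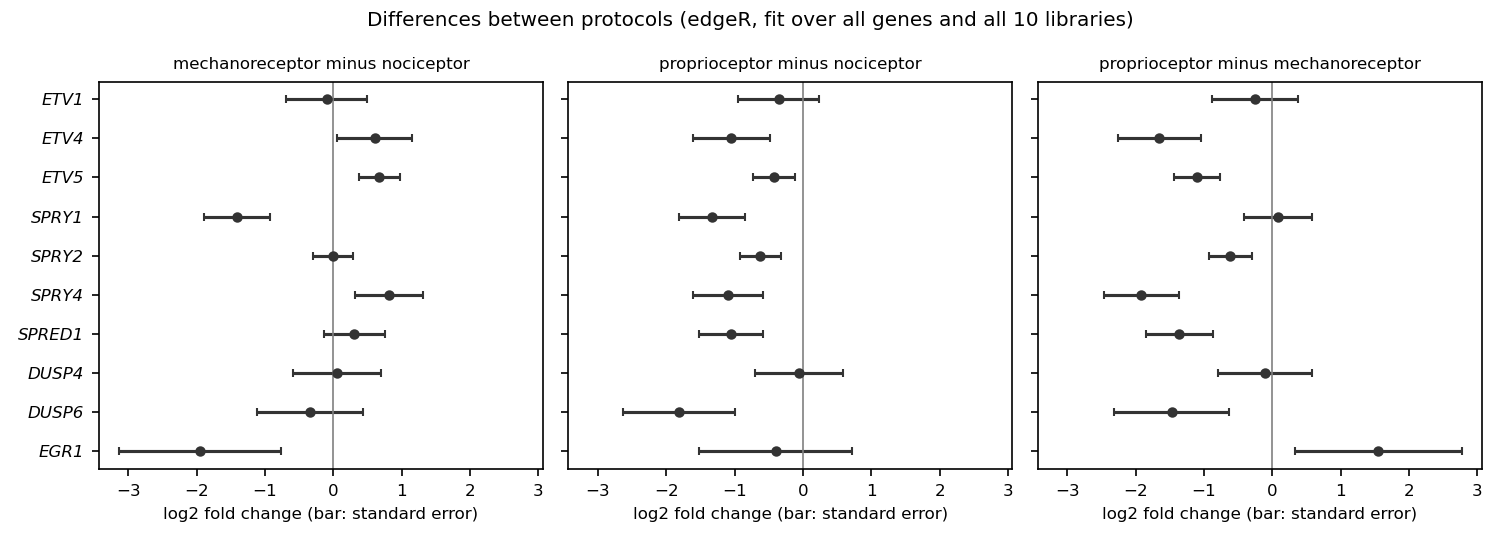
Log2 fold changes (horizontal axes) of the 10 genes in the 3 comparisons from the edgeR fit over all genes and all 10 libraries, with bars of 1 standard error. ETV4, ETV5, SPRY4 and SPRED1 lie below 0 in the right panel at -1.65, -1.10, -1.92 and -1.36, and all 10 points lie below 0 in the middle panel.

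The members differed in how they varied over the libraries. Likeness was measured as the root mean square difference between log2 CPM values standardised over the 10 libraries, where 0 would be the same pattern, among 13847 tested genes with a mean TPM of at least 1. The gene most like ETV4 was SPRY4, at 0.393, followed by LAMP3 at 0.397 and SLC30A2 at 0.424. For ETV5 these were RGS3 at 0.397, NCEH1 at 0.405 and SPRY4 at 0.416. ETV1 was most like RPGRIP1L at 0.366, USP45 at 0.388 and STAMBPL1 at 0.396, and EGR1 was most like KIAA1217 at 0.188, EZR at 0.215 and the ETS repressor ERF at 0.263. Among the 10 genes, ETV4 and EGR1 were the least alike pair, at 1.71. The ratio of ETV4 to SPRY4 in TPM ran from 2.16 in proprioceptor 2 to 6.33 in proprioceptor 1, a 2.93-fold range. As TPM, SPRY4 itself ranged 10.2-fold and ETV4 9.57-fold.

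**Figure D3:**
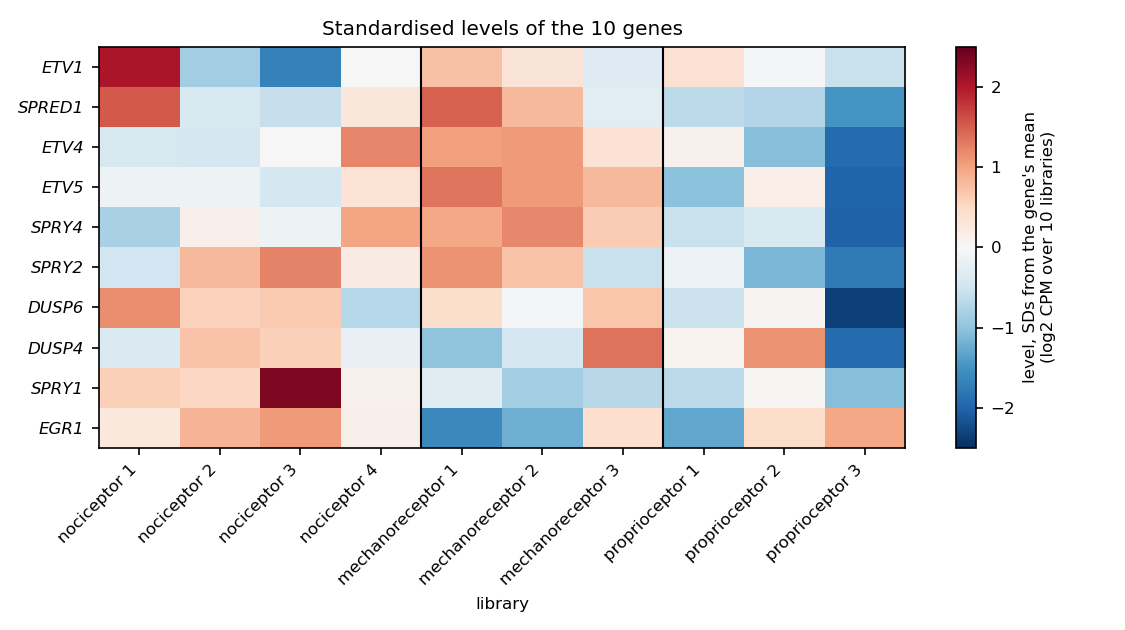
Log2 CPM of the 10 genes (rows) in the 10 libraries (columns, with lines between protocols), in standard deviations from the mean of each gene. Red is above and blue below the mean: ETV4, ETV5 and SPRY4 are red in all 3 mechanoreceptor libraries, and proprioceptor 3 is blue for 9 genes and red for EGR1.

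**Figure D4:**
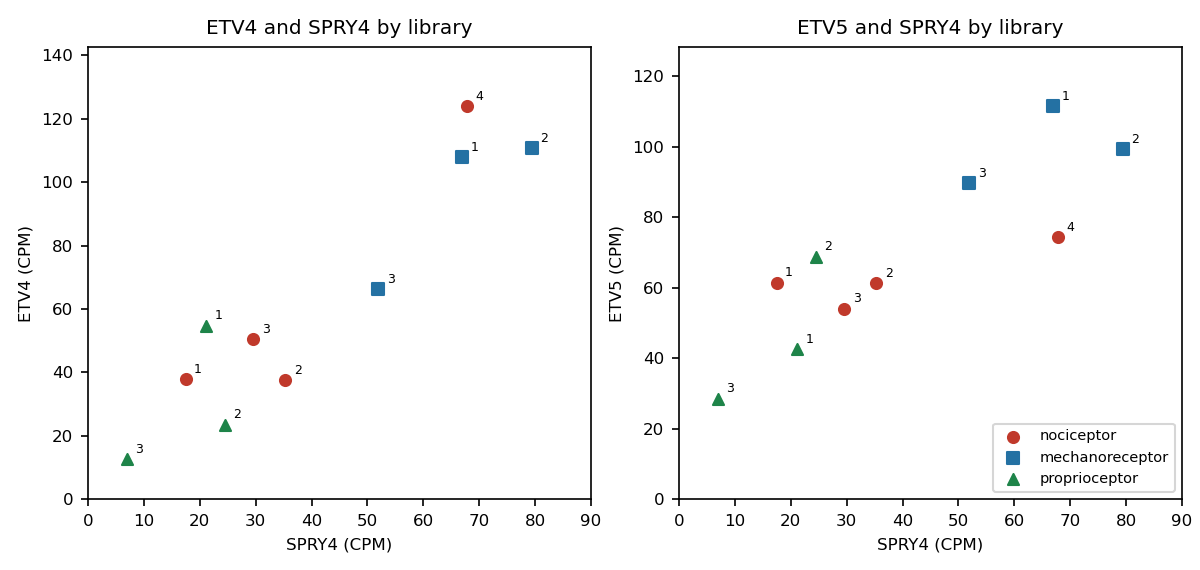
ETV4 (left) and ETV5 (right) against SPRY4 in each library, in CPM on linear axes from 0, with replicate numbers. The mechanoreceptor libraries, at 52.0 to 79.4 CPM of SPRY4, lie up and right of the proprioceptor libraries, at 7.01 to 24.4 CPM, and nociceptor 4 lies beside the mechanoreceptor libraries for ETV4 but below all 3 of them for ETV5, at 74.3 CPM.

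Libraries with a low level of mesenchyme genes, which were also the lower ones in glia genes, mostly had less EGR1. EGR1 was at 0.444 to 0.823 CPM in 3 of the 5 libraries low in mesenchyme genes and at 7.77 to 24.8 CPM in the 5 high ones, with nociceptor 4 (6.24 CPM) and proprioceptor 3 (21.5 CPM) as the low-mesenchyme libraries that departed. CCND1, an ERK-induced cyclin chosen after its values were seen, was at 2.21 to 47.1 CPM in the 5 low libraries and at 228 to 646 CPM in the 5 high ones. The part of mesenchyme and glia cells in the EGR1 values was not tested. The libraries were divided by the mesenchyme level, at a mean log2 CPM of 3, after the data were seen. The low ones hold 2 mechanoreceptor libraries, 2 proprioceptor libraries and only 1 nociceptor library, nociceptor 4. At 2.88, nociceptor 4 was close to this limit, while the other low libraries were at 1.14 to 1.69. The high ones hold 1 mechanoreceptor library, 1 proprioceptor library and the other nociceptor libraries. These are too few for a test. Among low-mesenchyme libraries ETV4 was at 108 and 111 CPM under the mechanoreceptor protocol and at 54.8 and 12.5 CPM under the proprioceptor protocol, and among high ones it was at 66.4 and 23.5 CPM. With the mesenchyme level as a covariate in edgeR, 5 of the 10 genes were lower under the proprioceptor than the mechanoreceptor protocol at an unadjusted p under 0.05 (1.5% of all genes), and 0 were called. The covariate was computed from these same libraries and divides them as the glia genes do, so this fit cannot tell protocol from cell composition. The part of cell composition in these differences was not tested.

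**Figure D5:**
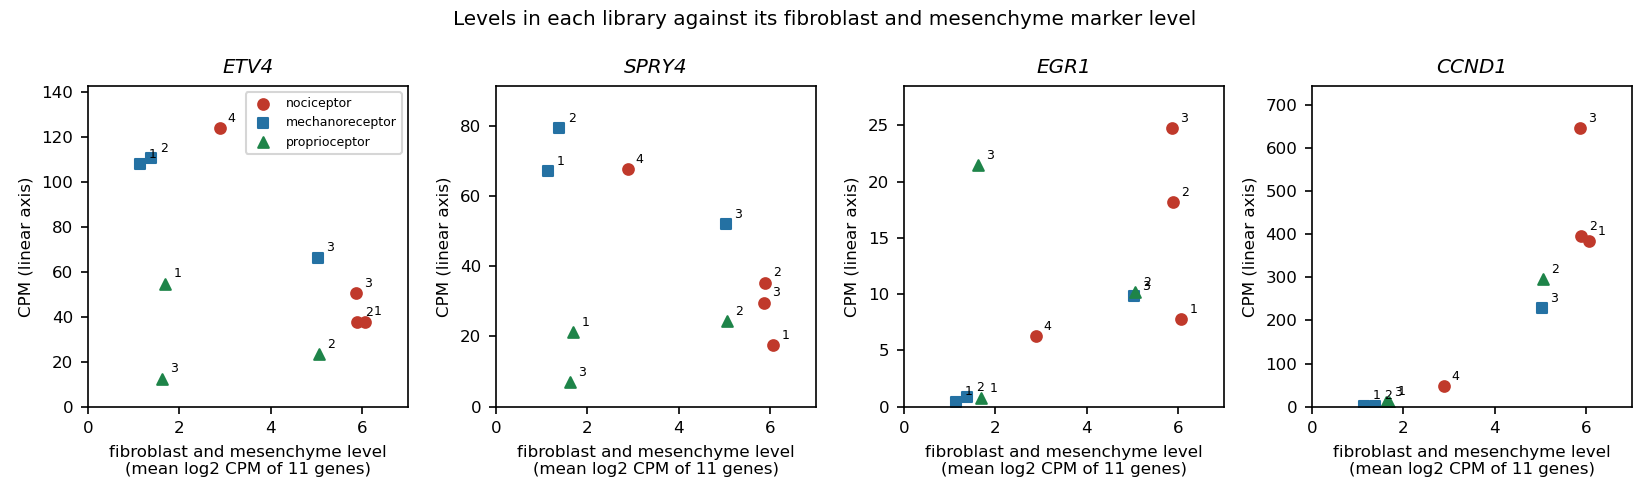
CPM of ETV4, SPRY4, EGR1 and CCND1 (vertical axes, linear) against the mean log2 CPM of 11 fibroblast and mesenchyme genes (horizontal axes) in each library, numbered by replicate. CCND1 is at 228 CPM or more in the 5 libraries on the right, while ETV4 in the proprioceptor libraries is at 12.5 and 54.8 CPM on the left and at 23.5 CPM on the right.

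The rest of the pathway was read from lists of receptors, ligands, kinases, inhibitors and targets, of which edgeR called 0 genes in any comparison. Each list is described by up to 3 genes with its smallest unadjusted p. Among 27 genes of the RAS, RAF, MEK and ERK cascade, 17 had estimates above 0 in the mechanoreceptor against the nociceptor protocol, with a median of 0.17, beside 8088 of all 16130 tested genes and a median of 0.0018. In the same comparison the glia and mesenchyme lists had medians of -2.28 and -1.84, and their part in the cascade values was not tested. MAPK3, which encodes ERK1, was at 1.16 ± 0.37 (SE), the ERK-activated kinase RPS6KA2 at 0.92 ± 0.35 and MAP2K1, which encodes MEK1, at 0.58 ± 0.25. Of 17 other feedback inhibitors, IL17RD, a membrane inhibitor of FGF signalling, was at 1.12 ± 0.43 in that comparison. The phosphatase gene DUSP5 was at -1.14 ± 0.42 for proprioceptor minus mechanoreceptor, and DUSP10 at -2.18 ± 0.70 for proprioceptor minus nociceptor.

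Of 27 ligand genes tested, KITLG, the KIT ligand, was at -2.30 ± 0.82 (SE) and IGF1 at 2.12 ± 0.82 for proprioceptor minus mechanoreceptor. KITLG stood at 78.0, 48.4 and 36.0 CPM in the mechanoreceptor libraries and at 15.3, 16.7 and 0.994 CPM in the proprioceptor libraries. IGF1 did not exceed 5.39 CPM in any library. Of 18 receptor genes, the smallest p belonged to NTRK2, the BDNF receptor, at 1.20 ± 0.61 for proprioceptor minus mechanoreceptor, where proprioceptor 3 alone stood at 336 CPM and the other 9 libraries at 52.7 to 126 CPM. FGFR4 at -1.33 ± 0.67 and PDGFRA at -2.56 ± 1.44 for proprioceptor minus nociceptor followed, and FGFR4 did not exceed 0.644 CPM in any library. PDGFRA stood at 4.16 CPM in nociceptor 1, at 0.237 to 0.826 CPM in the other nociceptor libraries and at 0 to 0.542 CPM in the proprioceptor libraries.

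The immediate early genes tended below 0 in the mechanoreceptor against the nociceptor protocol, 13 of 16 with a median of -0.80, where the glia and mesenchyme lists were lower too. All tested genes divided almost evenly about 0 in that comparison, as given above. IER2 was at -0.92 ± 0.44 (SE) and EGR3 at -1.90 ± 1.08 in that comparison, and ARC, a synaptic activity gene, at 0.98 ± 0.56 for proprioceptor minus nociceptor. EGR3 did not exceed 2.12 CPM in any library. EGR2, EGR4, FOSB, NR4A3 and NPAS4, also on this list, averaged under 1 TPM in the mechanoreceptor and in the nociceptor libraries. Among 8 other ERK-induced targets, EPHA2 was at -2.57 ± 1.43 and FOSL1 at -2.93 ± 1.73 for mechanoreceptor minus nociceptor, and PHLDA1 at -2.33 ± 1.45 for proprioceptor minus nociceptor. Among 14 other ETS factors, FLI1 was at -2.22 ± 1.06 and ETS1 at -2.63 ± 1.29 for mechanoreceptor minus nociceptor, and ELF4 at -1.62 ± 0.77 for proprioceptor minus nociceptor. FLI1 did not exceed 1.48 CPM in any library. The part of glia and mesenchyme in these values was not tested.

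Of 10 proprioceptor and neurotrophin-3 genes, 5 had estimates above 0 for proprioceptor minus mechanoreceptor and 5 below, with a median of 0.07. SPP1, an osteopontin gene of large sensory neurons and of many other cells, was at -3.85 ± 1.17 (SE), NTF3, the gene of neurotrophin-3, at -2.84 ± 1.32 and WHRN at 0.95 ± 0.45 for mechanoreceptor minus nociceptor. SPP1 stood at 79.6, 263, 112 and 4.70 CPM in the nociceptor libraries and at 2.66, 6.61 and 14.6 CPM in the mechanoreceptor libraries. NTF3 did not exceed 7.72 CPM in any library. The part of glia and mesenchyme in the SPP1 and NTF3 values was not tested. NTRK3, the neurotrophin-3 receptor named here because ETV1 responds to its ligand and not by the rule above, stood at 23.5, 23.1 and 2.80 CPM in the proprioceptor libraries, at 9.49 to 19.5 CPM in the mechanoreceptor libraries and at 12.3 to 33.2 CPM in the nociceptor libraries.

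The transcript values add to the picture of ETV1. Of its 21 transcripts, 14 start upstream and 6 start within 1 kb of the first base of ETV1-215 at position 13986441 of chromosome 7. The 6 held 46.8%, 30.8%, 27.6% and 30.4% of ETV1 TPM under the nociceptor protocol, 36.1%, 42.8% and 35.3% under the mechanoreceptor protocol, and 34.3%, 47.6% and 26.9% under the proprioceptor protocol. The protocols overlapped. Nociceptor 1, highest in ETV1, was among the highest in this share. In ETV5 and SPRY2 1 transcript held most of the gene in every library, at 70.9% to 91.4% for ETV5 and 92.4% to 96.9% for SPRY2. The share of the leading ETV4 transcript ran from 18.2% to 61.5%. The listed transcripts of SPRY1 held 61.7% to 97.1% of its gene TPM, while those of each other gene held nearly all. The source of the remaining SPRY1 TPM was not traced. Reads shared by overlapping transcripts are divided by estimation, so these shares carry an error the files do not show.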

How the data were processed

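Bulk RNA-seq was measured in 10 libraries. Trizol RNA, its integrity read on a bioanalyzer, was turned into cDNA by the Clontech Ultra Low v4 kit and into NexteraXT libraries, which were read as paired 75 nt reads, per the labels' protocols. The authors quantified reads with kallisto 0.50.1 on GRCh38.p14, per the submitters' processing notes, and deposited estimated counts and TPM per gene and per transcript. How transcripts were summed to genes is not given in the sources used here. The kit marks no strand, and counts after PCR are not independent molecules.

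The deposited estimated counts of 30357 named genes were tested. A further entry with a blank name, 0.733% to 1.66% of counts and 2.81% to 8.80% of TPM, was left out. In edgeR 4.0.16 (R 4.3.3), filterByExpr kept 16130 genes, TMM scaled the libraries, and 1 quasi-likelihood model over all 10 libraries gave each protocol a mean. Contrasts were two-sided, standard errors are the fold change over the root of F, and p-values were adjusted by Benjamini-Hochberg over all tested genes with a threshold of 0.05. The common biological coefficient of variation was 0.550. The fit was tested on simulated data. Log2 CPM used a prior count of 2. The lowest chi-square per degree of freedom between replicates' counts was 126.0, so none was counted as a copy. Alternatives used DESeq2 1.42.0 and limma 3.58.1 on log2(TPM + 1) and log2(TPM + 0.1), among others. Gene starts and promoter sequences came from RefSeq on GRCh38.p14, and transcript names from GENCODE.

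The genes and lists were chosen with earlier results of these data known. The rule for named genes took all 10 genes, the 3 genes of each pathway list with the smallest unadjusted p in any comparison, and the 3 genes most like each of ETV1, ETV4, ETV5 and EGR1. One gene that this rule names is not reported here. CPM was taken as the scale of the per-library values after the data were seen, since TPM was low for most genes in 1 library. Where the scale changes a count, both are given.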

Additional observations from a re-analysis of the deposited data

Results flagged for a closer look

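Within the 4 nociceptor libraries, 2 values stood far from the rest, by a gap above Dixon's critical value. ETV4 was at 124 CPM in nociceptor 4 and at 37.6 to 50.4 CPM in the other 3, a gap of 0.852 of the range. SPRY1 was at 38.1 CPM in nociceptor 3 and at 10.8 to 14.1 CPM in the other 3, a gap of 0.877. Both also passed on the TPM scale, at gaps of 0.873 and 0.843. Both scales are linear, and the rule was not applied to log2 CPM, where the distances are relatively smaller. There ETV4 was at 6.96 in nociceptor 4 and at 5.23 to 5.66 in the other nociceptor libraries. SPRY1 was at 5.25 in nociceptor 3 and at 3.44 to 3.83 in the others. Chance flags about 1 in 20 groups, and the groups of 3 were not tested.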

How the results depend on the processing

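In 19 alternatives, none of the 10 genes passed the adjusted threshold, and 19 of 30 fold changes never changed sign. The number of genes called was 0 except with DESeq2 (150, 31 and 1 for mechanoreceptor minus nociceptor, proprioceptor minus nociceptor and proprioceptor minus mechanoreceptor) and, for the first, 34 in the 5 libraries low in mesenchyme genes, a set chosen after seeing the data. Leaving out each library in turn gave 0 calls in each comparison. Same-numbered libraries correlated from -0.63 to 0.49. These correlations cannot decide whether replicate numbers pair the libraries, since they follow removal of protocol means of only 3 to 4 libraries. A replicate block, which leaves out nociceptor 4, called 0 genes in each comparison. It gave 2390, 1970 and 228 genes at an unadjusted edgeR p under 0.05, against 1320, 998 and 241 in the main fit. TPM scales moved the median of all genes to -0.18 and -0.25 for proprioceptor minus mechanoreceptor and to 0.11 and 0.15 for mechanoreceptor minus nociceptor.

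Signs changed for these mechanoreceptor minus nociceptor values. DUSP4 was -0.0067 with median-ratio factors, -0.0037 in DESeq2, -0.026 and -0.045 on log2(TPM + 1) and log2(TPM + 0.1), -0.11 with the block and -0.45 in low-mesenchyme libraries. SPRY2 was 0.0092 without the filter, 0.12 on both TPM scales, 0.0083 with only the libraries compared and 0.30 in low-mesenchyme libraries. ETV1 was 0.42 and 0.43 on the TPM scales, 0.23 with the block and 0.41 in low-mesenchyme libraries. ETV4 was -0.0083 with the mesenchyme covariate and -0.19 in low-mesenchyme libraries, and DUSP6 was 1.21 and 1.503. For proprioceptor minus nociceptor, DUSP4 was 0.66 and EGR1 1.39 with the covariate, and in low-mesenchyme libraries EGR1 was 0.85 and ETV1 0.020. For proprioceptor minus mechanoreceptor, DUSP4 was 0.020 with the block and 0.13 in low-mesenchyme libraries, and SPRY1 was -0.032 with the covariate and -0.19 in low-mesenchyme libraries. Low-mesenchyme values against the nociceptor protocol rest on nociceptor 4 alone for that protocol. The cause of the sign changes was not tested.

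Leaving out 1 library at a time moved mechanoreceptor minus nociceptor values from -0.41 to 0.74 for ETV1, -0.92 to 0.36 for DUSP4, -0.70 to 0.086 for DUSP6, -0.15 to 0.73 for SPRED1 and -0.23 to 0.12 for SPRY2. The ranges were -0.65 to 0.50 for ETV1, -0.85 to 0.38 for DUSP4 and -1.38 to 0.11 for EGR1 in proprioceptor minus nociceptor, and -0.21 to 0.27 for SPRY1 and -0.86 to 0.85 for DUSP4 in proprioceptor minus mechanoreceptor. EGR1 is the gene of the 10 with the fewest counts, from 16 to 32 in mechanoreceptor 1, mechanoreceptor 2 and proprioceptor 1, where counting error is largest.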
